A study of Homo sapiens with 12 samples.

Results

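The 4331 peaks described here are the far intergenic part of 6 hnRNPK ChIP-seq peak lists from HCT116, a widely used human colorectal cancer cell line. A peak was counted as far intergenic when its midpoint lay outside every GENCODE gene record of any type and more than 10 kb from the 5′ end of every such record, called the gene start below. They made up 26.7% of the 16214 peaks on chromosomes 1 to 22, X and Y. The peaks most like them were the 6018 gene-body peaks, which also lay more than 10 kb from every gene start but inside a gene record. Cells of all 3 groups overexpressed hnRNPK, and they carried in addition a vector for the lncRNA CRLM1 (CRLM1-OE), the vector without an insert (empty control) or an antisense vector (antisense control). Each group had 2 IP libraries, made from formaldehyde-crosslinked chromatin with an antibody against HNRNPK, and 2 input libraries, and each peak list compared 1 IP library with its own input. The labels give no clone or pool of transduced cells, so that the replicates could be repeats from 1 cell pool, and p-values over them measure only the spread between these libraries. No read counts came with the lists, so the depth of each library is unknown, and most peaks lay close to the lowest score of 50. One property crossed the groups: 2 lists, CRLM1-OE replicate 1 (506 bp) and empty control replicate 2 (516 bp), had narrow peaks by their median width, and the other 4 lists had wide ones (662 to 747 bp).

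hnRNPK is an RNA- and DNA-binding protein whose KH domains prefer C-rich single strands, and it acts in transcription, splicing and RNA stability. Sequence far from genes holds distal enhancers, but also the satellite DNA around the centromeres, which consists of short units repeated head to tail. Alpha satellite, with monomers of about 170 bp, forms the centromeres, and human satellites II and III, built from degenerate GGAAT units, lie beside many of them. A read from such arrays can align to many places, and how the authors treated these reads is not given in the sources used here.

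The strongest and most recurrent far intergenic regions were satellite sequence of this kind, so their reference sequence (hg38, plus strand) is shown first. Each line gives the central 200 bases of a region. In the first pair, the capitals mark AAATATC or its complement GATATTT, which recur inside an AT-rich unit of 42 bp. Both regions were called in all 6 lists, and the chromosome 3 region holds the complement of the strand seen on chromosome 4.
chr4:49710271-49710470: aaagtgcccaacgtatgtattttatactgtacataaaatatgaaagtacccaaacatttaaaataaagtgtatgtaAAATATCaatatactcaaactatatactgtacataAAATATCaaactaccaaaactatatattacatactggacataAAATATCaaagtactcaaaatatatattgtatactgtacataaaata
chr3:93470482-93470681: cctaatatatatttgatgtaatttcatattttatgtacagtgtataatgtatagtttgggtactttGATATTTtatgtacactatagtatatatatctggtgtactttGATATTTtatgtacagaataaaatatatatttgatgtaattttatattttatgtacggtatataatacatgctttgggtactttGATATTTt

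In the second pair, the capitals mark GGAAT or its complement ATTCC. The region on chromosome 5 was called in all 6 lists and the region on chromosome 20 in 5 lists.
chr5:49666637-49666836: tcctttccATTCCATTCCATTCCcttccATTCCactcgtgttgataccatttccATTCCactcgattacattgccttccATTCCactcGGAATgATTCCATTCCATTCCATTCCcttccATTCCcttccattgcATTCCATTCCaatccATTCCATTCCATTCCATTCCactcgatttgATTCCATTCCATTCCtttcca
chr20:31060894-31061093: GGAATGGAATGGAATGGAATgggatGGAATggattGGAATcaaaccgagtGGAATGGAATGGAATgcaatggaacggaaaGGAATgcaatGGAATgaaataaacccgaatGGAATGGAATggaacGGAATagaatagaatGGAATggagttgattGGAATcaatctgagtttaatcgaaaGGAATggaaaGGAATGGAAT

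The first line of the next pair is shown for its longer period. Capitals in both lines mark bases equal to the base 170 bp downstream, near the length of an alpha satellite monomer. The first region was called in both empty control lists and in no other list, and the second, called in 4 lists, held the peaks farthest from any gene. The second line holds far fewer capitals than the first, and its region did not reach the limit set below for this period.
chr19:27395450-27395649: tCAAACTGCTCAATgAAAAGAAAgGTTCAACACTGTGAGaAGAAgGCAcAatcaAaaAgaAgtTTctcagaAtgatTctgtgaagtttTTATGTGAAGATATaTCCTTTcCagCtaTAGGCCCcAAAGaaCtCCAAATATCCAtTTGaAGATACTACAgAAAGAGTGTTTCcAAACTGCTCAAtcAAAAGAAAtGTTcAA
chr17:25920110-25920309: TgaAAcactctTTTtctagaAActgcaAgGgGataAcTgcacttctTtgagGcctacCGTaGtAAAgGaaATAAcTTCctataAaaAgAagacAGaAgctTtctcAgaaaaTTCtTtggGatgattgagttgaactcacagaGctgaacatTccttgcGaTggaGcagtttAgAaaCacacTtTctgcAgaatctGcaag

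The last region held no such repeat. Capitals mark TCCC or its complement GGGA, a C-rich patch of the kind hnRNPK binds. It was called in both antisense control lists and in no other list. Other named regions without a repeat held more or fewer TCCC matches for their length, as given below.
chr3:127547748-127547947: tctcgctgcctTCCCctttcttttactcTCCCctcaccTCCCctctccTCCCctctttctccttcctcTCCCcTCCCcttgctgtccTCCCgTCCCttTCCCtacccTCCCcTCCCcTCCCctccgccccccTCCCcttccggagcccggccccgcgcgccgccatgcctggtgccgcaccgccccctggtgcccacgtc

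The first question was whether CRLM1-OE changed how many hnRNPK peaks fell far from genes. Far intergenic peaks numbered 1139 of 4339 peaks in CRLM1-OE replicate 1, which is 26.3% with a 95% Wilson interval of 25 to 27.6%. They numbered 761 of 3163 in CRLM1-OE replicate 2, or 24.1% (22.6 to 25.6%). The empty control lists held 471 of 1619, or 29.1% (26.9 to 31.4%), and 751 of 2607, or 28.8% (27.1 to 30.6%). The antisense control lists held 613 of 2262, or 27.1% (25.3 to 29.0%), and 596 of 2224, or 26.8% (25 to 28.7%). Such intervals describe counting error alone, since peaks beside each other can depend on each other. Both CRLM1-OE lists lay below all 4 control lists. Of 293719 positions placed every 10 kb over the genome outside assembly gaps, 29.6% met the same rule, and all 6 lists lay below that share.

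The mean share was 25.2% ± 1.55 (SD, n = 2) in CRLM1-OE, 28.9% ± 0.20 (SD, n = 2) in the empty control and 26.9% ± 0.21 (SD, n = 2) in the antisense control. CRLM1-OE minus empty control was -3.79 percentage points (two-sided exact permutation test over the lists, p = 0.333) and CRLM1-OE minus antisense control -1.79 points (exact p = 0.333), which is the smallest p that 2 lists against 2 allow. Against the 4 control lists together the difference was -2.79 points (exact p = 0.133, where the smallest possible is 0.0667). No group comparison could therefore pass 0.05. The difference from the antisense control rested on few lists, being -0.70 points when CRLM1-OE replicate 2 was left out and -2.89 points when replicate 1 was. Among lists of like width, CRLM1-OE replicate 1 differed from empty control replicate 2 by -2.56 points, and CRLM1-OE replicate 2 differed from empty control replicate 1 by -5.03 points and from the antisense control lists by -3.04 and -2.74 points. In all, 24 comparisons between groups were made over 8 measures, and the lowest adjusted p (Benjamini-Hochberg) was 1.

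**Figure D1:**
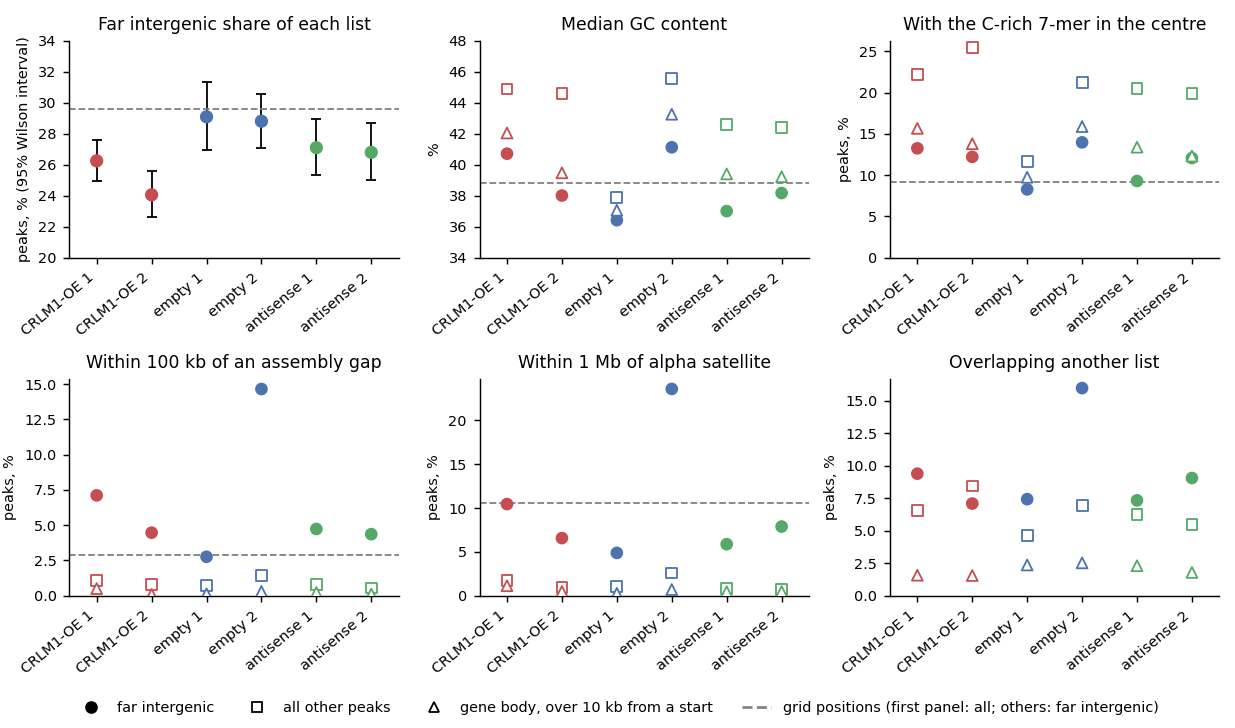
Share of far intergenic peaks in each list with its 95% Wilson interval (first panel), and 5 measures of far intergenic peaks (filled circles), all other peaks (open squares) and gene-body peaks over 10 kb from a gene start (open triangles) in each list, coloured by group. Axes give percent, dashed lines give the value at grid positions (all of the genome in the first panel, far intergenic sequence in the others), and empty control replicate 2 stands highest for gaps, alpha satellite and overlap with another list.

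Within the far intergenic sequence, the typical distance of hnRNPK peaks from genes was close to that of the sequence itself. The median distance from a peak to the nearest gene record was 33.2 and 30.8 kb in the CRLM1-OE lists, 35.3 and 35.1 kb in the empty control lists and 38.2 and 33.7 kb in the antisense control lists. At grid positions it was 36.2 kb. Both CRLM1-OE lists lay below the 4 control lists, with a mean of 32.0 kb ± 1.68 (SD, n = 2) against 35.2 kb ± 0.16 (SD, n = 2) and 35.9 kb ± 3.17 (SD, n = 2), and the difference of -3.54 kb from both controls had an exact permutation p of 0.0667 and an adjusted p of 1. Over all lists, 11% of the peaks lay within 10 kb of a gene record, 51.8% between 10 and 50 kb, 20.3% between 50 and 100 kb and 16.3% between 100 and 500 kb. At the far end, 22 peaks (0.51%) lay more than 500 kb from any record against 5.85% of the grid positions. The 10 kb limit cut through a continuous range, with 104 peaks between 10 and 11 kb from the nearest gene start and 130 between 9 and 10 kb.

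**Figure D2:**
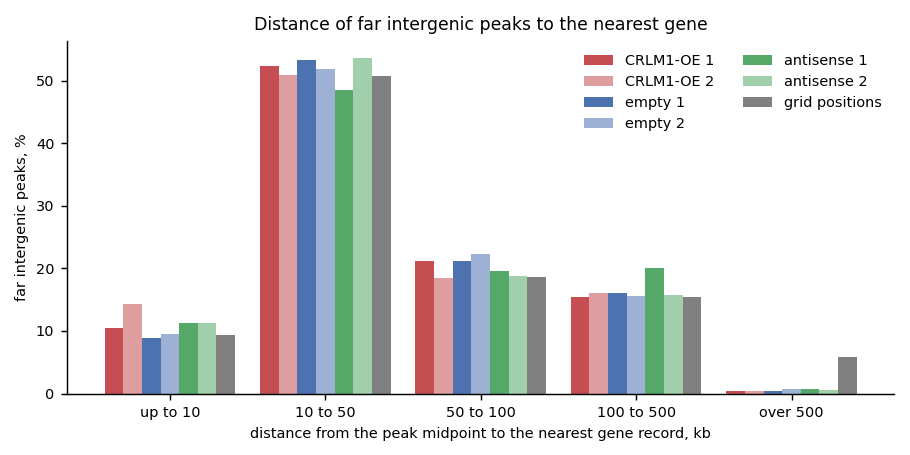
Percent of far intergenic peaks of each list (coloured bars; replicate 1 dark, replicate 2 light) and of far intergenic grid positions (grey) by distance from the midpoint to the nearest gene record, in kb. The bars of the 6 lists and of the grid lie close together up to 500 kb, and over 500 kb the grid holds 5.85% and the lists between 0.39 and 0.67%.

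The nearest record was a lncRNA for 1571 peaks (36.3%), a pseudogene for 1154 (26.6%) and a protein-coding gene for 1141 (26.3%). At a subset of 8691 far intergenic grid positions these shares were 35.9%, 31.6% and 22.9%. The median distance to the nearest protein-coding gene was 130 kb for the peaks and 160 kb for the grid.

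Far intergenic peaks were poorer in GC than gene-body peaks, and their median also lay below that of all other peaks in each list. Their median GC content was 40.7 and 38.0% in the CRLM1-OE lists, 36.4 and 41.1% in the empty control lists and 37.0 and 38.2% in the antisense control lists. The values followed the width of the lists and not the groups, the 2 narrow lists being highest. In the same lists the other peaks had 44.9, 44.6, 37.9, 45.6, 42.6 and 42.4%. The far intergenic median was lower in 6 of 6 lists, with a mean difference of -4.40 percentage points ± 1.72 (SD of the differences, n = 6; exact sign-flip test over lists, two-sided, p = 0.03125, the smallest p that 6 lists allow, adjusted p = 0.0547 over 7 measures). Against gene-body peaks the difference was -1.50 points ± 0.66 (SD, n = 6; exact p = 0.03125, adjusted p = 0.04375), again in 6 of 6 lists. Without chromosome Y and peaks near satellites or gaps this difference was -1.51 points, with an adjusted p of 0.0781 from the exact test over 5 measures. The far intergenic grid had a median of 38.8% in windows of 500 bp, inside the range of the lists, which was 36.6 to 41.0% in such windows. Gene-body grid positions, inside a gene record and over 10 kb from every gene start, had 39.6%, so the sequence itself differed in the same direction.

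The C-rich motif CCCTCCC, searched on both strands in the central 500 bp, was also less frequent than in gene-body peaks. It was present in 151 of 1139 far intergenic peaks (13.3%) and 93 of 761 (12.2%) in the CRLM1-OE lists, in 39 of 471 (8.28%) and 105 of 751 (14.0%) in the empty control lists, and in 57 of 613 (9.30%) and 72 of 596 (12.1%) in the antisense control lists. The share was lowest in empty control replicate 1, the list with the lowest GC content. Other peaks held the motif in 11.7 to 25.4% of cases, and the far intergenic share was lower in 6 of 6 lists, with a mean difference of -8.63 points ± 3.4 (SD, n = 6; exact p = 0.03125, adjusted p = 0.0547). Against gene-body peaks the difference was -1.95 points ± 1.27 (SD, n = 6; exact p = 0.03125, adjusted p = 0.04375), and away from satellites, gaps and chromosome Y it was -0.78 points (adjusted p = 0.469, exact test). The motif stood in 9.21% of far intergenic grid windows of the same length, so that 5 of the 6 lists lay above their own territory and empty control replicate 1 below it. In gene-body grid windows it stood in 10.5%, so the sequence itself also differed in this direction. The mean number of TCCC matches per window, of which CCCTCCC holds 1 or more, was 3.55 to 4.32 in the lists and 3.94 in the grid.

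Far intergenic peaks lay close to the unfinished and centromeric parts of the assembly more often than gene-body peaks did. An assembly gap (a run of at least 1 kb of unknown bases) stood within 100 kb of 7.11 and 4.47% of them in the CRLM1-OE lists, 2.76 and 14.6% in the empty control lists and 4.73 and 4.36% in the antisense control lists. Among other peaks this share was 0.55 to 1.45%. It was higher in 6 of 6 lists, by 5.46 points ± 4.00 (SD, n = 6; exact p = 0.03125, adjusted p = 0.0547), and against gene-body peaks by 6.11 points ± 4.23 (SD, n = 6; exact p = 0.03125, adjusted p = 0.04375). Of the far intergenic grid positions, 2.86% lay as close to a gap, against 0.39% of the gene-body grid positions. The sequence itself thus differed in the same direction as the peaks.

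An alpha satellite block, found in the sequence by the period of its monomers, stood within 1 Mb of 10.4 and 6.57% of far intergenic peaks in the CRLM1-OE lists, 4.88 and 23.6% in the empty control lists and 5.87 and 7.89% in the antisense control lists. Empty control replicate 2 was highest and the other empty control list lowest, so the groups overlapped. Other peaks had 0.68 to 2.59% there. The difference was 8.57 points ± 6.32 (SD, n = 6; exact p = 0.03125, adjusted p = 0.0547) against other peaks and 9.28 points ± 6.86 (SD, n = 6; exact p = 0.03125, adjusted p = 0.04375) against gene-body peaks, and it was higher in 6 of 6 lists in both. Without empty control replicate 2 it was 6.09 and 6.56 points. Of the gene-body grid positions, 0.95% lay within 1 Mb of a block. The far intergenic territory itself had 10.6% of its grid positions there, so the rule that defines the peaks already sets the 2 kinds of sequence apart. Empty control replicate 2 lay above that value and the other 5 lists below it.

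Which sequence was called there was read from the central 500 bp of each peak, in classes defined after the data had been seen. A peak was put in the GGAAT class when it held 2 copies of GGAAT in a row on either strand, in the alpha-period class when at least 45% of its bases equalled the base 1 alpha satellite monomer on (give or take 2 bp), and in the 42-bp class when at least 50% equalled the base 42 bp on. The GGAAT class held 333 far intergenic peaks (7.69%), whereas 0.42% of the far intergenic grid windows fell in it. It took 84 peaks (7.37%) in CRLM1-OE replicate 1 and 33 (4.34%) in replicate 2, 15 (3.18%) and 134 (17.8%) in the empty control lists, and 28 (4.57%) and 39 (6.54%) in the antisense control lists. Every list lay above the grid, and the narrow lists, CRLM1-OE replicate 1 and empty control replicate 2, were highest. The part of peak width in this difference between lists was not tested. The alpha-period class showed the opposite: it held 86 peaks (1.99%) but 6.91% of the grid, and each of the 6 lists, at 0.82 to 3.99%, lay below the grid. Only 18 peaks (0.42%) fell in the 42-bp class, against 0.022% of the grid, and they formed 4 regions. The remaining 3894 peaks (89.9%) met none of the 3 limits and are called peaks without a repeat. Satellite sequence below a limit can be among them, and 62 of them lay within 1 Mb of an alpha satellite block.

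Outside the far intergenic set, the GGAAT class was rare. It held 31 of 11883 other peaks, 9 of them in gene bodies. Of the 333 far intergenic ones, 292 lay within 1 Mb of an alpha satellite block. They formed 148 merged regions and 31 clusters (regions within 100 kb of each other), and the 6 largest clusters held 245 of the peaks. The largest, at chr4:49090951-49156736, held 71 peaks. It gave 22 and 9 peaks in the CRLM1-OE lists, 5 and 24 in the empty control lists and 3 and 8 in the antisense control lists. The next, at chr21:10659955-10730891, held 51 peaks, of which 32 came from empty control replicate 2, 9 from CRLM1-OE replicate 1 and 1 to 4 from each of the other lists.

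**Figure D3:**
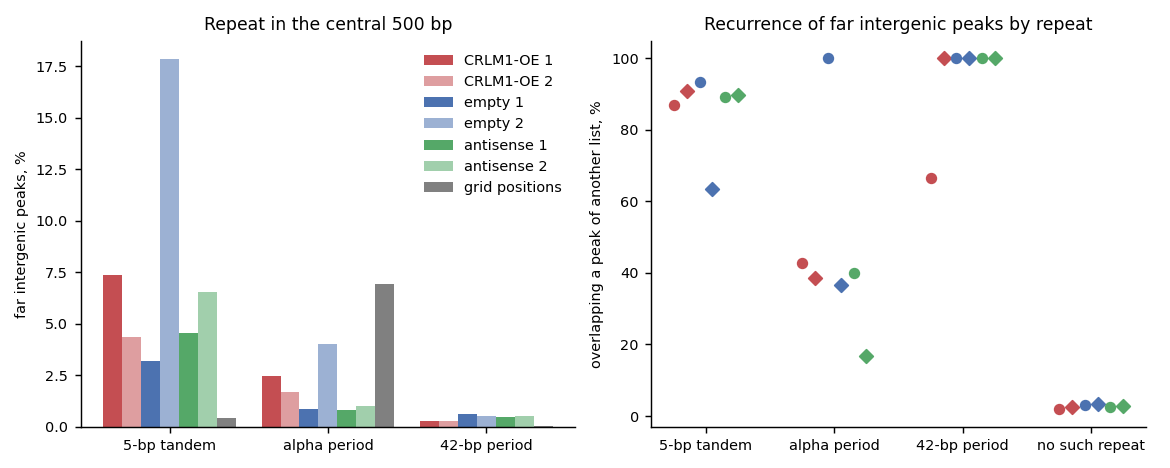
Left, percent of the far intergenic peaks of each list, and of far intergenic grid positions (grey), whose central 500 bp held a GGAAT array (5-bp tandem), the alpha satellite period or a 42-bp period. Right, percent of the far intergenic peaks of each class that overlapped a peak of another list, 1 point a list (circles replicate 1, diamonds replicate 2): the peaks with no such repeat lie between 1.95 and 3.43% in all 6 lists, and the 5-bp tandem peaks between 63.4 and 93.3%.

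Most far intergenic peaks that recurred between lists held one of these repeats, 314 of 415. Of all 16214 peaks, 7.41% overlapped a peak of another list by at least 1 bp. Among far intergenic peaks the share was 9.39 and 7.10% in the CRLM1-OE lists, 7.43 and 16.0% in the empty control lists and 7.34 and 9.06% in the antisense control lists. It exceeded that of the other peaks of the same list in 5 of 6 lists, CRLM1-OE replicate 2 being the exception, by a mean of 3.0 points ± 3.45 (SD, n = 6; exact p = 0.0938, adjusted p = 0.109), and by 1.35 points without empty control replicate 2. Against gene-body peaks, at 1.56 to 2.53%, it was higher in 6 of 6 lists, by 7.36 points ± 3.20 (SD, n = 6; exact p = 0.03125, adjusted p = 0.04375). Overlap is mutual, so a shared region counts in each list that holds it. The 6 differences in overlap are therefore not independent, which the sign-flip tests of overlap here and below do not take into account. By class, 262 of 333 GGAAT peaks (78.7%), 35 of 86 alpha-period peaks (40.7%) and 17 of 18 with the 42-bp period (94.4%) overlapped a peak of another list. Of the 3894 without such a repeat, 101 (2.59%) did, against 752 of 11810 other peaks without a repeat (6.37%).

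With chromosome Y and all peaks near alpha satellite or gaps left out, the direction turned. Then 85 of 3827 far intergenic peaks (2.22%) and 687 of 11629 other peaks (5.91%) overlapped another list, a mean difference of -3.33 points, lower in each list (adjusted p = 0.03125, exact test over lists, 5 measures). The difference from gene-body peaks came to 0.37 points there (adjusted p = 0.365, exact test). Without empty control replicate 2, which had the most repeat peaks, 145 of 199 GGAAT peaks (72.9%) and 66 of 3311 peaks without a repeat (1.99%) still overlapped a peak of another list.

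Merged over the lists, the far intergenic peaks formed 4055 regions. Of these, 3916 were called in 1 list, 79 in 2, 31 in 3, 15 in 4, 6 in 5 and 8 in all 6 lists. Of the 11409 regions without a far intergenic peak, 313 were called in 2 or more lists, 14 in 5 and 3 in all 6. Repeats made up 94 of the 139 far intergenic regions called in 2 or more lists. They also made up all 8 far intergenic regions called in every list, of which 6 were GGAAT arrays and 2 had the 42-bp period. Lists of 1 group had 1.78 to 1.94% of their regions in common: 33 regions for CRLM1-OE (1.78% of the regions in either list), 23 for the empty control lists (1.94%) and 22 for the antisense ones (1.86%). Lists of different groups had 1.12 to 4.71% in common. CRLM1-OE replicate 1 and empty control replicate 2, the narrow lists, had 84 in common (4.71%), 76 of them repeats.

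The GGAAT and 42-bp peaks were also among the highest by the authors' score, the alpha-period peaks less so. The median rank of a GGAAT peak within its list, counted from the highest score, was at 8.09% of the list. By list it ran from 5.35% in empty control replicate 2, which held 134 of the 333 GGAAT peaks, to 16.8% in CRLM1-OE replicate 2. The median rank of a 42-bp peak was at 0.38%, and that of a far intergenic peak without a repeat at 54.1%. For an alpha-period peak it was at 25.6%, and by list it ran from 13.5% (empty control replicate 1, 4 peaks) to 56.2% (antisense control replicate 2, 6 peaks). Of the 20 highest-scoring peaks of a list, 11 and 3 were far intergenic in the CRLM1-OE lists, 9 and 13 in the empty control lists and 6 and 9 in the antisense control lists. A repeat stood in 11 and 2, 6 and 13, and 6 and 7 of these.

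The region chr4:49708707-49712035, with a 42-bp period over its 3329 bp, had the best mean rank. Its scores were 467 and 305 in the CRLM1-OE lists, 695 and 678 in the empty control lists and 875 and 691 in the antisense control lists. It was the highest-scoring peak of empty control replicate 1 and of both antisense control lists. In the CRLM1-OE lists it ranked 7 of 4339 and 18 of 3163. Scores of different lists are not on 1 scale of depth, so the place of a region is compared by its rank within a list. The region had a GC content of 24.5%, and 72.1% of its bases equalled the base 42 bp on. It lay inside a satellite block, 1.87 kb from a gap, 121 kb from SNX18P25, a processed pseudogene, and 2133 kb from DCUN1D4, a gene for a cullin neddylation factor.

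The region chr3:93470206-93470958 shared this period. Its scores were 655 and 380 in the CRLM1-OE lists, 111 and 243 in the empty control lists and 685 and 529 in the antisense control lists, and it was the highest far intergenic score of CRLM1-OE replicate 2. It ranked 4 in both CRLM1-OE lists, 12 of 1619 and 33 of 2607 in the empty control lists and 2 in both antisense control lists. One more 42-bp region, chr4:51107115-51107618, was called in both empty control lists (73.2 and 85.2) and both antisense control lists (101 and 101) and in neither CRLM1-OE list. The sequences of the 3 regions were related, with between 15 and 43.1% of distinct 12-mers of the smaller region found in the other on either strand. Between these and the 8 GGAAT regions named here, at most 0.33% were shared.

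Among the GGAAT regions named here, chr4:49118126-49121625 varied most between lists in its rank. Its score was 671 and 222 in the CRLM1-OE lists, 52.0 and 1319 in the empty control lists and 78.4 and 180 in the antisense control lists. It was thus the highest peak of empty control replicate 2 and ranked 1278 of 1619 in the other empty control list. Its ranks were 3 and 33 in the CRLM1-OE lists and 156 and 4 in the antisense control lists. GGAAT on either strand took up 56.9% of its bases. Its neighbours were CWH43, 57.8 kb away, and the processed pseudogene ENSG00000249828, 83.3 kb away.

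On chromosome 4, GGAAT regions at 3 more places were called in all 6 lists. At chr4:49656853-49658107, the scores were 285 and 83.0 in the CRLM1-OE lists, 70.0 and 355 in the empty control lists and 146 and 93.4 in the antisense control lists. At chr4:49090951-49093772 they were 375 and 95.4, 71.4 and 436, and 68.3 and 116 in the same order. At chr4:49101974-49104966, where the lists held 12 peaks in all, the highest of each list were 161 and 73.9, 102 and 425, and 65.6 and 98.6. By rank as a percent of the list, each of the 3 stood best in a list of another group. These were antisense control replicate 1 (8 of 2262), CRLM1-OE replicate 1 (13 of 4339) and empty control replicate 2 (11 of 2607). The second region had the smaller rank number in empty control replicate 2, at 10 of 2607 (0.38% against 0.30%).

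On chromosome Y, chrY:11291630-11296398 was called as 1 wide peak of 4031 to 4612 bp in every list. Its scores were 548 and 218 in the CRLM1-OE lists, 155 and 855 in the empty control lists and 120 and 340 in the antisense control lists. It lay 12.9 kb from DUX4L16, a pseudogene of the DUX4 repeat family. On chromosome 5, chr5:49666038-49667436 scored 121 and 96.9, 61.9 and 222, and 155 and 81.2 in the same order of lists, and the nearest gene, EMB for the membrane glycoprotein embigin, was 729 kb away. In the same order the chromosome Y region ranked 5 and 36, 3 and 3, and 16 and 3, and the chromosome 5 region 86 and 217, 464 and 37, and 7 and 127.

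Of the 6 regions called in 5 lists, 5 were GGAAT arrays, and the 2 best ranked of these are given here. At chr20:31059824-31062163, 197 kb from the beta-defensin gene DEFB115, the scores were 90.7 and 133 in the CRLM1-OE lists, 104 and 272 in the empty control lists and 79.8 in antisense control replicate 2. At chr10:41874741-41876004, 274 kb from the pseudogene KSR1P1, they were 147 and 92.0 in the CRLM1-OE lists, 124 in empty control replicate 2 and 107 and 80.5 in the antisense control lists. The 8 GGAAT regions had 15.3 to 43.2% of their distinct 12-mers in common, pair by pair.

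**Figure D4:**
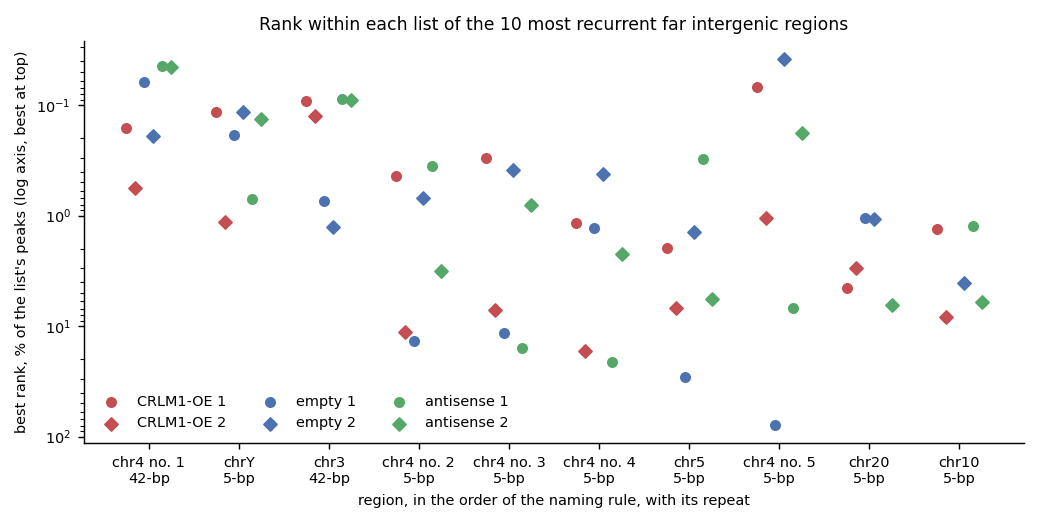
Best rank by the authors' score, in percent of the peaks of each list (log axis, best rank at the top), in the 10 far intergenic regions called in most lists, coloured by group with circles for replicate 1 and diamonds for replicate 2; "5-bp" marks GGAAT arrays and "42-bp" the AT-rich repeat. The region labelled no. 5 of chromosome 4 spreads from 0.038% in empty control replicate 2 to 78.9% in empty control replicate 1, and the first region lies at 0.57% or better in all 6 lists.

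Among regions without a repeat, chr17:43315731-43317331 was the only one in 5 lists, and it was singled out after its values had been seen. It scored 167 and 204 in the CRLM1-OE lists, 50.1 and 108 in the empty control lists and 120 in antisense control replicate 2, and it lay 11.1 kb from CCDC200 and 22.2 kb from LINC00910, a lncRNA. By rank it stood at 49 of 4339 and 45 of 3163 in the CRLM1-OE lists, 1599 of 1619 and 131 of 2607 in the empty control lists and 15 of 2224 in that antisense control list. Such regions were few: in the class without a repeat, 40 were called in 2 lists, 3 in 3, 1 in 4 and 1 in 5. The 1 in 4 lists, chr17:25920032-25920388, lay inside alpha satellite and only fell short of the limit of the alpha-period class.

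A region was taken as group-specific when the 2 lists of its group held it and no other list did. Of the 4055 merged regions, 5 were specific to CRLM1-OE, 4 to the empty control and 2 to the antisense control. All but 1 of these held no repeat, as did 3838 of all 4055 regions and 40 of the 79 called in 2 lists of any groups. Of the 11409 regions without a far intergenic peak, 234 were called in 2 lists of any groups. How many of those were group-specific is not given here. The lists differed in length, with 4339 and 3163 peaks in CRLM1-OE and 1619 to 2607 in the controls. Regions without a repeat shared by a pair of lists numbered 7, 5 and 4 within these groups, and 2 to 8 between groups. Whether the group-specific counts differed beyond list length was not tested. The best ranked of CRLM1-OE, chr10:86594462-86595218, scored 65.1 and 80.2 and lay 36 kb from the pseudogene RPL7AP8 and 69.7 kb from WAPL-DT, the divergent transcript of the cohesin-release gene WAPL. The second, chr2:97749861-97750970, scored 59.0 and 72.2 and lay between ZAP70, a kinase of T cell receptor signalling, at 10.6 kb and TMEM131 at 5.92 kb. The third, chr12:52894964-52896381, scored 56.6 and 74.5 and lay 1.51 kb from the 3′ end of KRT8, which encodes keratin 8 of simple epithelia.

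In the empty control, chr19:27394996-27396104 scored 146 and 84.2. It was the only one of these group-specific calls in the alpha-period class, and 55.4% of its bases equalled the base 170 bp on. The region chr4:1809531-1810808 scored 82.6 and 74.2 and lay 1.30 kb from FGFR3, a fibroblast growth factor receptor, and 1.31 kb from LETM1, a protein of the inner mitochondrial membrane. The region chr2:231634031-231635025 scored 74.4 and 56.7 and lay 11.5 kb from RN7SL499P and 40.3 kb from TEX44. By rank the chromosome 19 region stood at 4 of 1619 and 254 of 2607, and the chromosome 2 region at 146 and 1376.

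For the antisense control, chr3:127547252-127548444 scored 78.2 and 55.9, with 64.8% GC and 40 TCCC matches in 1193 bp, and lay 7.36 kb from LINC02034. Its peak in antisense control replicate 1 had its midpoint within 10 kb of a gene start, so that only the other peak was far intergenic. The second region, chr8:143901498-143903759, scored 69.8 and 60.1 and lay 1.04 kb from the lncRNA ENSG00000288096 and 12.5 kb from PLEC, the gene of the cytoskeletal linker plectin. It held 37 TCCC matches in 2262 bp. The CRLM1-OE regions held 29 in 757 bp (chromosome 10), 9 in 1110 bp (chromosome 2) and 23 in 1418 bp (chromosome 12). Those of the empty control held 2 in 1109 bp (chromosome 19), 37 in 1278 bp (chromosome 4) and 15 in 995 bp (chromosome 2).

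The 3 peaks farthest from any gene record came from 1 region, chr17:25920032-25920388, inside alpha satellite and 1061 kb from the nearest record, the pseudogene ENSG00000263433. It scored 63.5 in CRLM1-OE replicate 1, 52.9 in empty control replicate 2 and 107 and 70.5 in the antisense control lists. Over the whole region 47.5% of the bases equalled the base 170 bp on, although the 500 bp around its peaks fell short of the limit of the alpha-period class.

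The density of far intergenic peaks over the chromosomes was 4.98 per Mb of far intergenic territory for the 6 lists together. It was highest on chromosome 17, at 11.7 per Mb, followed by chromosome 21 with 10.4, chromosome 20 with 8.45, chromosome 8 with 8.38 and chromosome 22 with 8.27. This order was not that of each list. Chromosome 17 had 3.10 and 1.40 peaks per Mb in the CRLM1-OE lists, 0.61 and 3.22 in the empty control lists and 1.88 and 1.52 in the antisense control lists, and it was below chromosome 8 (1.43 and 1.14 per Mb) in CRLM1-OE replicate 2 and empty control replicate 1. On chromosome 21, 69 of the 140 peaks came from empty control replicate 2 (5.15 per Mb), and the other lists had 0.37 to 2.16 per Mb. Without the repeat peaks chromosome 21 came to 4.25 per Mb, below the mean of 4.48, while chromosome 17 stayed at 10.5 and chromosome 8 at 8.33. Chromosome 17 held 193 of the 4331 far intergenic peaks and 1047 of all 16214 peaks, and chromosome 8 held 345 and 1145. Chromosomes 21, 20 and 22 held 140 and 419, 170 and 551, and 74 and 497. Whether these densities are particular to far intergenic peaks was not tested. Chromosome X held 4 far intergenic peaks in 66.9 Mb (0.060 per Mb), all in CRLM1-OE replicate 1, and 21 of all 16214 peaks. Whether the authors treated chromosome X differently is not given in the sources used here. The 14 peaks on chromosome Y were all in the GGAAT class.

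Peaks without a repeat were also packed in some windows. Of the windows of 5 Mb, that from 110 to 115 Mb on chromosome 8 held the most, 56 in 2.74 Mb of far intergenic territory. It gave 9 and 10 peaks in the CRLM1-OE lists, 14 and 5 in the empty control lists and 12 and 6 in the antisense control lists. The window from 105 to 110 Mb on chromosome 10 held 52 in 2.88 Mb, with 8 and 8, 9 and 8, and 9 and 10 peaks in the same order. The window from 135 to 140 Mb on chromosome 8 held 39, and that from 50 to 55 Mb on chromosome 17 held 27. All 6 lists contributed to each of these windows. Whether peaks outside the far intergenic set were packed there too was not tested.

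**Figure D5:**
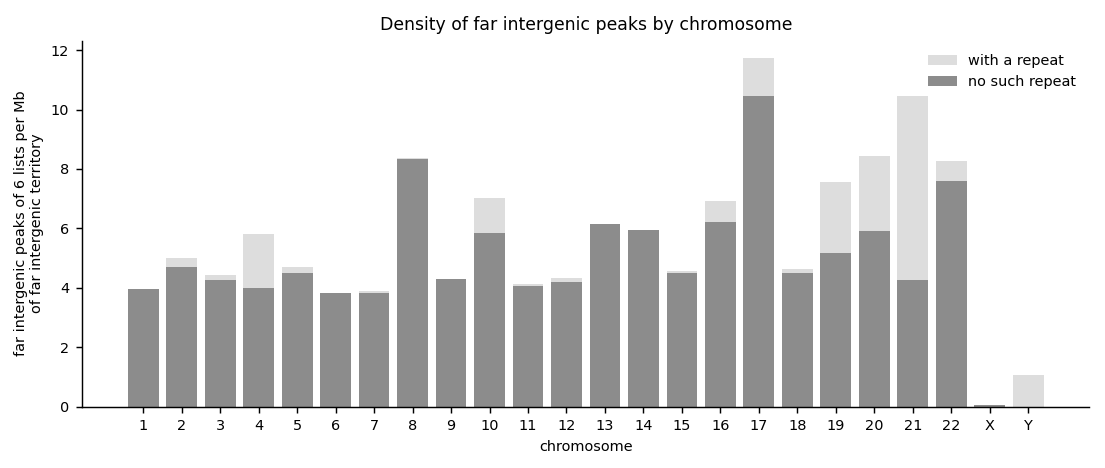
Far intergenic peaks of the 6 lists together per Mb of far intergenic territory on each chromosome; the dark part of a bar holds peaks with no such repeat and the light part those with a repeat. Chromosome 17 reaches 11.7 per Mb, chromosome 21, with 69 of its 140 peaks from empty control replicate 2, falls from 10.4 to 4.25 without repeats, and chromosome X stands at 0.060.

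Width and score separated far intergenic peaks little from the rest. For CRLM1-OE the far intergenic median width was 500 and 693 bp, for the empty control 709 and 522 bp, and for the antisense control 700 and 656 bp. It differed from that of other peaks by -23.7 bp ± 30.1 (SD, n = 6; exact p = 0.0625, adjusted p = 0.0875) and from that of gene-body peaks by -1.50 bp ± 15.3 (SD, n = 6; exact p = 0.844, adjusted p = 0.844). The median score lay between 55.8 and 58.7 and differed by -0.11 ± 1.46 (SD, n = 6; exact p = 0.781, adjusted p = 0.781) from other peaks and by 0.59 ± 1.19 (SD, n = 6; exact p = 0.312, adjusted p = 0.365) from gene-body peaks. The repeat peaks were wider, with a median of 933 bp in the GGAAT class against 607 bp without a repeat.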

How the data were processed

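The authors trimmed reads with cutadapt, aligned them to GRCh38 with Bowtie2 and called peaks of each IP library against its own input with MACS2, per the study's methods. The score of each peak in the deposited lists is the authors' value. The lists have a lowest score of 50 and peak names of an older MACS form, so the calling settings behind them are not certain; scores are given as deposited and compared by difference or rank within a list. Read totals are not in the lists, so the depth of the libraries is unknown, and Wilson 95% intervals were given to shares of 1 list. Of 16768 deposited peaks, 16214 on chromosomes 1 to 22, X and Y were used.

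Midpoints were compared with 62663 gene records of GENCODE release 44 on these chromosomes. Gaps (at least 1 kb), GC content, motifs and periods were read from hg38. Alpha satellite blocks were runs of at least 100 kb of bins of 10 kb in which at least 36% of the bases equalled the base 1 monomer on, bridging up to 100 kb. Positions every 10 kb served as territory. Lists were the replicates: groups were compared by exact permutation of the lists, and far intergenic with other peaks by exact sign flips over the 6 lists, both two-sided, with Benjamini-Hochberg adjustment over 24 and 7 tests. Same-numbered lists do not come from a stated common culture, and the deviations of replicates by chromosome correlated at -0.57 (CRLM1-OE and empty control), 0.0074 and 0.35. The regions named are the 10 called in most lists, the highest-scoring of each list, the 3 best ranked of each group's own regions and the 3 peaks farthest from genes, with 1 region without a repeat and 1 with the 42-bp period added after their values were seen. Some sequences are not reported here. Members and lists were chosen with earlier results of these data known. Python 3.11.15, numpy 2.4.6, pandas 2.3.3, scipy 1.17.1 and samtools 1.23.1 were used, and the code was tested on simulated intervals and sequences.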

Additional observations from a re-analysis of the deposited data

How the results depend on the processing

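Over 222 recomputed values, 146 kept their direction and their side of the threshold, 41 lost the threshold, 24 passed it newly and 11 changed sign. The differences that follow are far intergenic minus other peaks (points for shares and GC content, bp for width), each with an exact sign-flip test over the lists. Among peaks above the median score of their list they were -5.32 for GC content, 0.45 for score (reversed), 7.57 for overlap with another list, 9.07 for closeness to gaps, 14.0 for closeness to alpha satellite blocks and -13.0 for CCCTCCC. Among the 1000 highest-scoring peaks they were -6.29, 9.10, 11.9, 17.3 and -14.4 for GC content, overlap, gaps, satellites and CCCTCCC. With a distance of 50 kb from every gene start they were -5.17, 7.92, 10.7, 15.4 and -11.7, and 0.79 for score (reversed). Away from satellites, gaps and chromosome Y they were -4.38 for GC content, -34.2 bp for width, -0.81 for score, -3.33 for overlap (reversed) and -7.47 for CCCTCCC. Without the repeat classes, an alternative chosen after seeing the data, they were -4.39, -34.2 bp, -0.80, -3.40 (reversed) and -7.43. With a reciprocal overlap of 50%, the overlap difference was 3.14. Leaving out 1 list moved the score difference between -0.515 and 0.382, above 0 only without CRLM1-OE replicate 2.

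Against gene-body peaks, 44 of 91 values kept their side, 41 lost the threshold and 6 changed sign. Width turned to 9.42 bp above the median score and to 20 bp among the 1000 highest-scoring peaks, and ran from -5.6 to 2.6 bp with 1 list left out, above 0 without empty control replicate 1 or antisense control replicate 1. Score turned to -0.20 away from satellites, gaps and chromosome Y and to -0.14 without the repeat classes. With 5 lists the smallest possible p is 0.0625, so leaving out a list cannot keep a call. The cause of these changes was not tested.

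The share of far intergenic peaks in CRLM1-OE minus each control kept its sign under every alternative run. With a replicate block the differences stayed at -3.79 (exact p = 0.5), -1.79 (exact p = 0.5) and -2.79 (exact p = 0.222) points against the empty control, the antisense control and both. Crossing the numbers of the empty control, chosen after seeing the data, gave 0 calls, as did the block as numbered. Neither could give a call, because the smallest p of this exact block test is 0.5, or 0.111 for 2 lists against 4. The planned share of soft-masked bases was not run, because the genome sequence used carries no lower case.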
